A study of Rattus norvegicus with 21 samples.

Results

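Primary BDEneu tumours taken 25 days after inoculation of the cells were set against tumours taken at 10 days, to ask which transcripts differed once the tumour had grown for 15 more days. The members are 6 of the 21 arrays of the series, chosen by their source label: the day 25 tumours of rats 7, 8 and 9 and the day 10 tumours of rats 1, 2 and 3. All were male, young adult Fischer 344 rats inoculated at the same time, and no rat gave a tumour to both days. The tissue is labelled as intrahepatic cholangiocarcinoma and was snap-frozen. Every tumour of both groups grew from the same line, BDEneu, so the rats are replicates of the host and not of the cancer cell. The remaining 15 arrays are tumours of day 15 (rats 4, 5 and 6), a metastasis from each day 25 rat, and liver from the right lobe of all 9 rats. They serve to place these values, and they enter the fit, where they help to set the spread per gene.

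Cholangiocarcinoma is a cancer of the epithelium that lines the bile ducts. BDEneu is a rat bile duct epithelial line carrying an activated neu, the rat name of Erbb2, a receptor tyrosine kinase of the epidermal growth factor receptor family that signals through the Ras and ERK kinases to drive cell division. Such a tumour is a mixture: malignant ducts, dense matrix laid down by myofibroblasts, blood vessels, macrophages, lymphocytes and, at its edge, liver tissue. Dendritic cells in it take up tumour protein and show its peptides to T cells on MHC molecules, and interferon raises that display.

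The unit throughout is the log2 expression level of 1 probe set per gene, on which a difference of 1 is a 2-fold change. Levels below the array medians (5.98 to 6.06) come without detection calls, so small levels may hold little but background. In a bulk piece, fewer cells of a type and less RNA per cell cannot be told apart. Values of single arrays run in the order rats 7, 8 and 9 for day 25 and rats 1, 2 and 3 for day 10.

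The pieces fitted their label. The mean level of 4 measured bile duct markers (Krt7, Krt19, Epcam and Cldn4) was 11.77, 11.52 and 11.17 in day 25 tumours and 11.30, 11.46 and 11.03 in day 10 tumours, against 5.72 to 7.38 in the 6 livers of those days. Erbb2 stood at 10.73, 10.00 and 9.36 in day 25 tumours, against 9.07, 9.55 and 8.93 in day 10 tumours, so the groups overlapped (difference 0.85, SE 0.37, adjusted p = 0.26; 0.50 without rat 7, whose tumour is described next). In the livers of those days Erbb2 lay between 4.98 and 5.69.

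The day 25 tumour of rat 7 stood apart. Over all probe sets its correlation was 0.967 with the tumour of rat 8, 0.951 with that of rat 9 and 0.993 with the metastasis of its own rat, whereas the tumours of rats 8 and 9 had 0.989 with each other and 0.960 and 0.959 with their own metastases. The 3 pairs of day 10 tumours had 0.992 to 0.996. Rat 7's piece was also low in hepatocyte markers: the mean of 6 was 7.73, 9.86 and 10.01 in day 25 tumours, against 10.97, 10.17 and 11.18 in day 10 tumours. It was also the highest late tumour in skeletal muscle markers, whose mean over 3 was 8.96, 6.46 and 6.76 at day 25, against 8.08, 6.97 and 6.83 at day 10. The tumour of rat 9 carried pancreatic acinar transcripts, with a mean over 4 markers of 6.11, 5.73 and 8.32 at day 25, against 5.83, 6.53 and 5.83 at day 10. Single-gene and list values that move by over 1.5 times without the tumour of rat 7 are therefore also given without it.

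Limma called 8 of 14218 genes between day 25 and day 10 at an adjusted p under 0.05, which is 0.0563% of those tested. Of these, 2 were higher (0.0141%) and 6 lower (0.0422%) at day 25. At an unadjusted p under 0.05 there were 2444 genes (17.2%), 1089 of them higher and 1355 lower. For 1738 genes (12.2%) every day 25 array lay above every day 10 array, and for 2131 (15.0%) every day 25 array lay below. Without the tumour of rat 7 no gene was called, 1019 genes (7.17%) had an unadjusted p under 0.05, and 2136 genes (15.0%) were separated upward and 2906 (20.4%) downward. The 8 calls rest on the spread shared by all 21 arrays: a fit of the 6 tumours alone called 0 genes, with a smallest adjusted p of 0.057.

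Cndp1 rose by far the most of the called genes. It encodes carnosine dipeptidase 1, which splits the dipeptide carnosine into beta-alanine and histidine and is known as a secreted enzyme of serum. Its level was 12.90, 12.17 and 11.57 in day 25 tumours, against 8.79, 8.95 and 8.55 in day 10 tumours. Every late tumour lay well above every early one, and the means of 12.21 ± 0.66 and 8.77 ± 0.20 (SD, n = 3 each) differ 10.9-fold (log2 difference 3.45, SE 0.56, adjusted p = 0.026). The day 15 tumours stood at 9.38, 8.70 and 11.08, that is 2 nearer the day 10 level and 1 nearer the day 25 level. The metastases of rats 7, 8 and 9 had 12.89, 11.43 and 11.11. In liver Cndp1 was far dimmer, at 7.89, 6.73 and 6.23 at day 25 and 5.82, 6.23 and 5.94 at day 10. Without rat 7's tumour the difference was 3.11 (adjusted p = 0.18).

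The other members of a carnosine and histidine list (8 of 10 measured) did not share this size. Cndp2, the cytosolic dipeptidase, had 11.84, 10.83 and 10.50 in day 25 tumours, against 9.76, 9.85 and 9.81 in day 10 tumours. The arrays did not overlap (difference 1.25, SE 0.31), but the gene was not called (adjusted p = 0.14), and without rat 7 the difference was 0.86. Slc15a3, a lysosomal carrier of histidine and small peptides, was separated the other way, with 6.81, 7.39 and 7.62 at day 25, against 8.02, 8.33 and 8.16 at day 10 (difference -0.90, adjusted p = 0.14). Its relative Slc15a4 differed by -0.24, with overlap (-0.09 without rat 7). The peptide transporters Slc15a1 and Slc15a2 were between 3.85 and 4.20 in all 6 tumours. Hal and Uroc1, which start the breakdown of histidine in hepatocytes, differed by -0.55 and -1.71 with overlapping arrays (-0.24 and -0.76 without rat 7). The list's median difference was -0.13, and -0.01 without rat 7, against 0.00 over all genes.

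Pgbd5, a gene derived from a piggyBac-type DNA transposase, was the other gene called higher. It had 7.36, 6.60 and 6.40 in day 25 tumours, against 5.27, 5.62 and 4.83 in day 10 tumours. The late tumours all lay above the early ones, and the day 15 tumours, at 5.90, 5.87 and 6.88, lay with 2 between the groups and 1 among the late values (difference 1.55, SE 0.27, adjusted p = 0.049). In the livers of days 25 and 10 it lay between 3.93 and 4.24, below the array medians. Of the 8 calls this had the highest adjusted p.

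The 6 genes called lower include several of antigen-presenting cells and lymphocytes. Ch25h, cholesterol 25-hydroxylase, makes the oxysterol 25-hydroxycholesterol and is induced by interferon in macrophages and dendritic cells. It stood at 7.24, 7.29 and 7.50 in day 25 tumours, against 8.55, 9.37 and 9.07 in day 10 tumours. The late tumours were close to each other and all more than 1 unit below the early ones (difference -1.65, SE 0.23, adjusted p = 0.011), and those of day 15 stood at 7.91, 8.03 and 7.88.

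Clec9a, a lectin receptor for dying cells on cross-presenting dendritic cells, had 4.65, 4.87 and 5.27 in day 25 tumours, against 6.21, 6.72 and 6.43 in day 10 tumours. All 3 late tumours lay below the early ones and in or close to the range of the livers, 4.67 to 5.10 at days 25 and 10 (difference -1.52, SE 0.22, adjusted p = 0.011). Ccl17, a chemokine made by dendritic cells that draws T cells carrying the receptor Ccr4, had 6.35, 6.31 and 6.73 at day 25, against 7.31, 7.98 and 7.86 at day 10. Its late values lay in or close to the range of those livers, 6.38 to 6.78, and its early ones above it (difference -1.25, SE 0.18, adjusted p = 0.011).

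The 3 further called genes lay near or below the array medians in day 25 tumours. Gcsam and P2ry10 lay below them in day 10 tumours too, so their levels may hold much background. Gcsam, a signalling adaptor of germinal centre B cells, had 4.00, 4.00 and 4.10 in day 25 tumours, against 4.94, 5.46 and 5.14 in day 10 tumours (difference -1.15, SE 0.19, adjusted p = 0.031). P2ry10, a lymphocyte receptor for lysophosphatidylserine, had 3.66, 3.81 and 3.88 at day 25, against 4.35, 4.73 and 4.43 at day 10 (difference -0.72, SE 0.12, adjusted p = 0.026). The gene with the provisional name LOC103691468 had 5.85, 6.03 and 6.06 at day 25, against 6.77, 6.84 and 6.80 at day 10 (difference -0.82, SE 0.12, adjusted p = 0.011), but its other probe set differed by -0.09. In none of these genes did the groups overlap. For all 8 called genes the day 15 mean lay between those of the other days. Calling selects genes with a wide gap between days 10 and 25, which favours this order, and its share over all genes was not counted. Without rat 7 the differences were 1.26 for Pgbd5, -1.60 for Ch25h, -1.38 for Clec9a, -1.19 for Ccl17, -1.13 for Gcsam, -0.66 for P2ry10 and -0.76 for LOC103691468. Their adjusted p was then between 0.12 and 0.28.

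**Figure D1:**
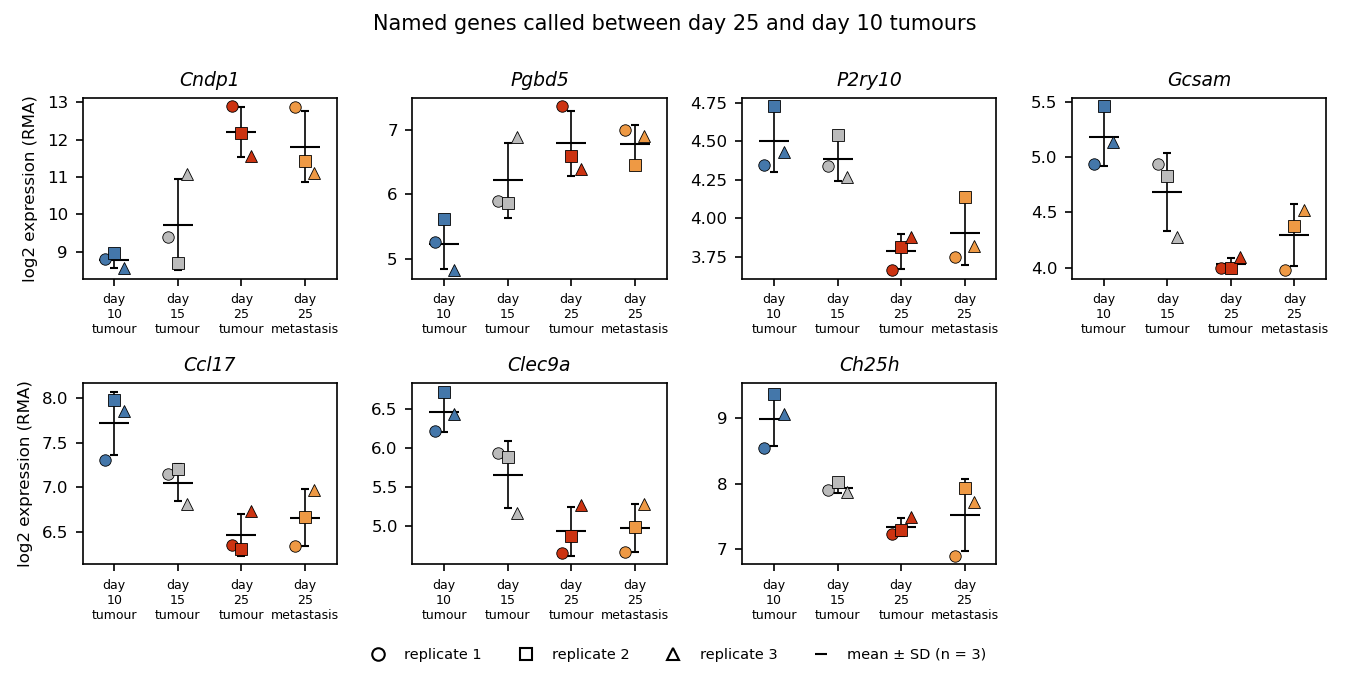
Log2 expression (vertical axis, a scale of its own in each panel) of the 7 called genes with a settled name in tumours of days 10, 15 and 25 and in day 25 metastases. Points are single arrays with their replicate number, and bars are the mean ± SD of 3 rats. Cndp1 lies between 11.57 and 12.90 in day 25 tumours and no higher than 8.95 in day 10 tumours, while Clec9a lies between 4.65 and 5.27 at day 25 and at 6.21 or more at day 10.

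Genes of dendritic cells as a list were mostly lower at day 25. Of 19 measured, 2 were called lower (Clec9a and Ccl17), as were 0.0422% of all genes. A negative difference was found for 17, and 11 were separated downward and 0 upward, against 15.0% and 12.2% of all genes. The median difference was -0.50, and -0.48 without rat 7. Irf8, a transcription factor needed for cross-presenting dendritic cells, had 7.23, 7.93 and 8.52 in day 25 tumours, against 8.95, 9.25 and 9.08 in day 10 tumours. The late tumours were spread over more than 1 unit and all lay below the early ones (difference -1.20, SE 0.34, adjusted p = 0.16). Clec4a3, a lectin receptor of myeloid cells and the brightest of the list, had 9.10, 8.96 and 10.18 at day 25, against 10.36, 10.69 and 10.65 at day 10 (difference -1.15, adjusted p = 0.19), with rat 9 nearest the early level.

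Macrophage and monocyte genes had a median difference of -0.51 (-0.33 without rat 7). Of 26 measured, 1 was called lower (Ch25h), as were 0.0422% of all genes. A negative difference was found for 24, and 10 were separated downward and 0 upward, against 15.0% and 12.2% of all genes. Ly86, the partner of a Toll-like receptor homologue on myeloid and B cells, had 5.78, 6.66 and 7.46 in day 25 tumours, against 7.95, 8.39 and 8.15 in day 10 tumours. Ccr2, the monocyte receptor for Ccl2, had 4.86, 5.20 and 6.47 at day 25, against 6.70, 6.57 and 6.79 at day 10. In both genes rat 7 was lowest and rat 9 came nearest to the early tumours (differences -1.53 and -1.18, adjusted p = 0.18 and 0.2). Aif1, a calcium-binding protein of macrophages, differed by -1.02, although its other probe set gave 0.16. Lyz2, the lysozyme of myeloid cells and the brightest of the list, differed by only -0.35, with overlap.

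All 8 measured genes of MHC class II antigen presentation (11 listed) were separated downward, against 15.0% of all genes, though none was called. RT1-Ba, RT1-Bb, RT1-Da and RT1-Db1 encode the chains of the rat class II molecules that show peptides to CD4 T cells, RT1-DMa and RT1-DMb the chaperone that loads the peptides, Cd74 the invariant chain, and Ciita the coactivator without which class II genes are hardly transcribed. Class II promoters are known for a conserved X box, bound by RFX factors, and a Y box, bound by NF-Y, on which Ciita is assembled.

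The bases before the start of RT1-Bb, RT1-Da, RT1-Db1, RT1-DMa and RT1-Ba are shown. Of these, 4 hold the letters searched for both boxes, and RT1-Ba only those searched for the Y box. Each run is the 150 bases upstream of the gene's start on its own strand, from RefSeq's table for GRCr8, and the capitals mark the letters ACNGATG (part of the X box) and TGATTGG (the Y box).
RT1-Bb (chr20:4604119-4604268, minus strand): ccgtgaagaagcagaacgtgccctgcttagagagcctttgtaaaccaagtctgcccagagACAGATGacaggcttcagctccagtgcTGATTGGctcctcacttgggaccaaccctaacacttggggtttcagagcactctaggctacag
RT1-Da (chr20:4515265-4515414, plus strand): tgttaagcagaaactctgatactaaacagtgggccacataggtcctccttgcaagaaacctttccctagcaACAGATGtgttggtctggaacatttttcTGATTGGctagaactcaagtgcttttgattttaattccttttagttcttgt
RT1-Db1 (chr20:4560163-4560312, minus strand): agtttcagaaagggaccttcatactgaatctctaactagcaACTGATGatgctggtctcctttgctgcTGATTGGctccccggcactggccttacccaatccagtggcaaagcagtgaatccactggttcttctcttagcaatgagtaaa
RT1-DMa (chr20:4712336-4712485, minus strand): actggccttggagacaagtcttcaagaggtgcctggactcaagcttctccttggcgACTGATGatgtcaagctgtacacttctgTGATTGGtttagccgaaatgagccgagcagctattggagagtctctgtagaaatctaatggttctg
RT1-Ba (chr20:4576907-4577056, plus strand): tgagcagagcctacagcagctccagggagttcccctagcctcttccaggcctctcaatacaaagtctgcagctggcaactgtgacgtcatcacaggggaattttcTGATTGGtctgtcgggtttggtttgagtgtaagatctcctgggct

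Of the 8 genes, 6 have an entry in that table: these 5 and Cd74. In the 250 upstream bases, read on both strands, 5 of the 6 hold the Y box letters, against 6.41% of all 33360 promoters, and 4 hold the X box letters, against 8.56%. The same 4 hold both, against 0.543% of all promoters. In these 4 the X box letters begin 27 (RT1-Bb and RT1-Db1) or 28 bases (RT1-Da and RT1-DMa) before the Y box letters, and the motifs do not overlap. The letters were chosen after the sequences had been seen, and a match describes the sequence and is not a measured binding site. Only these exact letters were searched, so a box with other letters goes unmarked. RT1-Ba and Cd74 are therefore not shown to lack an X box.

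The 4 genes with both sets of letters were lower in every late tumour. RT1-DMa had 9.03, 9.08 and 9.62 in day 25 tumours, against 10.12, 10.29 and 10.24 in day 10 tumours. RT1-Db1 had 10.67, 10.85 and 11.45 at day 25, against 11.82, 12.20 and 11.93 at day 10. RT1-Bb and RT1-Da differed by -0.90 (SE 0.26) and -0.72 (SE 0.28). In each, rat 7 was lowest, rat 8 next and rat 9 nearest to the day 10 tumours, which lay within 0.4 of each other. The genes without both sets of letters showed differences of the same order: RT1-Ba -0.89 (SE 0.32), Cd74 -0.74 (SE 0.26) and RT1-DMb, for which no upstream sequence was read, -1.10 (SE 0.29).

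Ciita had 6.31, 6.69 and 7.54 in day 25 tumours, against 7.80, 8.19 and 8.12 in day 10 tumours. It had the largest difference of the 8 (-1.19, SE 0.31, adjusted p = 0.14; -0.72 by its other probe set). The adjusted p of the other 7 was between 0.15 and 0.21. The median difference of the list was -0.94, and -0.77 without rat 7. The additional probe sets of RT1-Ba gave -0.33, -0.13 and -0.20 and that of RT1-Bb -0.16, so the size depends on the probe set. In the metastases Ciita had 6.34, 7.48 and 7.72 and Cd74 had 12.14, 13.18 and 12.94, with rat 7 again lowest. Macrophage markers moved in the same samples: the mean of Cd68, Csf1r and Adgre1 was 8.18, 8.52 and 9.19 in day 25 tumours, against 9.29, 9.50 and 9.41 in day 10 tumours. Their part in the class II levels was not tested.

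**Figure D2:**
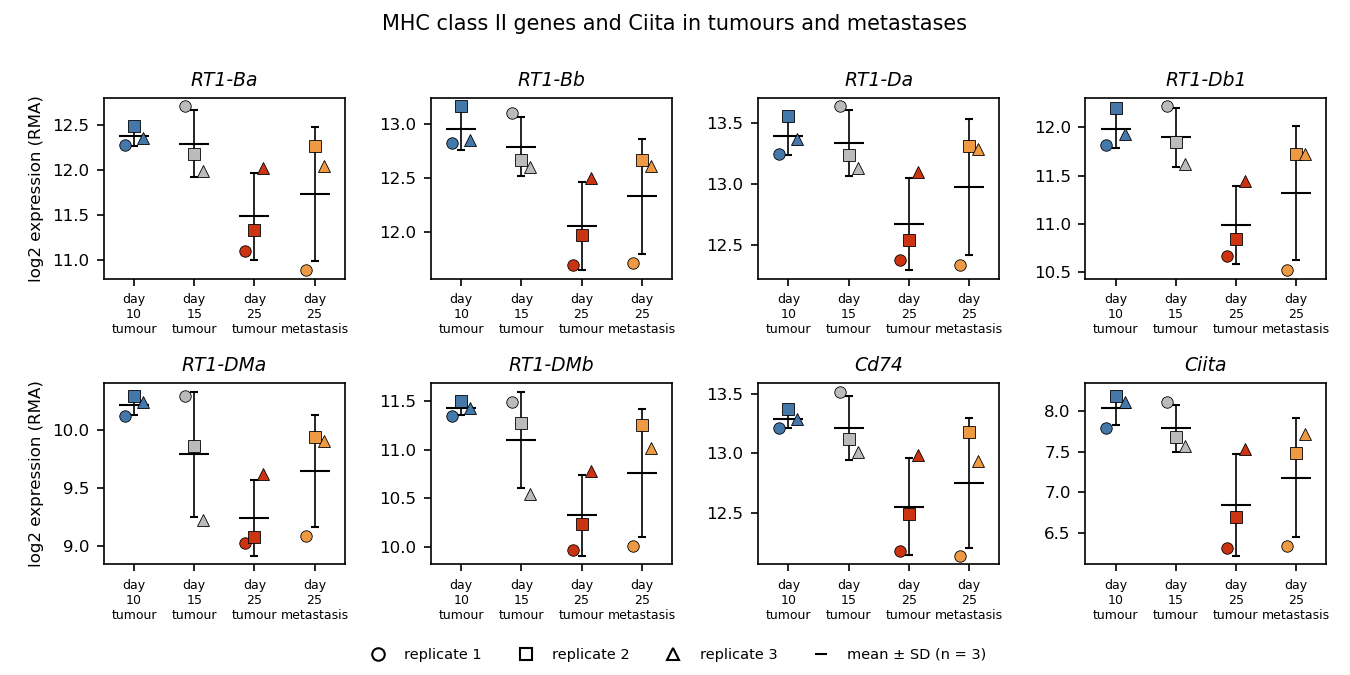
Log2 expression (vertical axis, its own scale in each panel) of the 8 measured MHC class II genes in tumours of days 10, 15 and 25 and in day 25 metastases. Points are single arrays and bars the mean ± SD of 3 rats. In each panel the 3 day 25 tumours lie below the 3 day 10 tumours, with mean differences of -0.72 (RT1-Da) to -1.19 (Ciita), and with replicate 1 (rat 7) the lowest.

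T and NK cell genes were dim in all tumours and mostly lower at day 25. Of 37 measured, 1 was called lower (P2ry10), as were 0.0422% of all genes. A negative difference was found for 32, and 16 were separated downward and 0 upward, against 15.0% and 12.2% of all genes. The median was -0.20, and -0.21 without rat 7. Cd3d and Cd3g, chains of the T cell receptor complex, showed it: Cd3d had 5.29, 5.53 and 5.74 in day 25 tumours, against 6.10, 6.71 and 6.02 in day 10 tumours, and Cd3g had 5.18, 5.76 and 6.30, against 6.56, 7.49 and 6.84. Late values of Cd3d lay at the level of the livers of days 25 and 10, 5.26 to 5.42, or somewhat above it. Icos, a costimulatory receptor of activated T cells, differed by -0.81 (SE 0.21, adjusted p = 0.14) and Il2rb, a receptor chain for interleukin 2 and 15, by -0.73 (SE 0.25, adjusted p = 0.19; -0.43 without rat 7). Klrk1, a receptor of NK and cytotoxic T cells and the brightest of the list, differed by -0.15, with overlap.

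B and plasma cell genes had a median difference of -0.14 over 16 measured, and of -0.05 without rat 7. Of these, 4 were separated downward and 0 upward, against 15.0% and 12.2% of all genes. Gcsam, 1 of the 4, was called lower, as were 0.0422% of all genes. The other separated members were Cd180 (-0.95) and Cd37 (-0.83), surface proteins shared by B and myeloid cells, and Cd79b (-0.20), a chain of the B cell receptor. Cxcr5, the homing receptor of follicular B cells, differed by 0.09.

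Among 17 chemokines that attract lymphocytes 1 was called lower (Ccl17), as were 0.0422% of all genes. Separated downward were 6 and upward 1, against 15.0% and 12.2% of all genes. Ccl21, made by lymphatic vessels and lymphoid stroma and a guide for T cells and dendritic cells, had 5.61, 8.02 and 8.38 in day 25 tumours, against 8.92, 9.26 and 9.43 in day 10 tumours (difference -1.86, SE 0.76, adjusted p = 0.23). The tumour of rat 7 lay more than 2 units under the others, and without it the difference was about 1 unit in the same direction (adjusted p = 0.79). Cxcl11, an interferon-induced ligand of Cxcr3, differed by -0.88, and Xcl1, which cross-presenting dendritic cells follow, by -0.64 (adjusted p = 0.46 and 0.19). Cxcl16, the brightest, differed by 0.08. The list median was -0.50, but -0.10 without rat 7.

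Interferon response genes were lower in most cases. Of 36 measured, 0 were called, 29 had a negative difference, and 23 were separated downward and 3 upward, against 15.0% and 12.2% of all genes. The median was -0.53, and -0.42 without rat 7. Differences of single members ran from -1.31 to 1.61, so the largest was upward. Mx1, an antiviral GTPase, had 5.18, 4.98 and 6.14 in day 25 tumours, against 6.45, 6.82 and 6.98 in day 10 tumours (difference -1.31, SE 0.42, adjusted p = 0.18). Isg15, a ubiquitin-like protein, had 6.77, 6.26 and 6.80 at day 25, against 7.63, 7.71 and 7.94 at day 10 (difference -1.15, SE 0.30, adjusted p = 0.14). In Isg15 the late tumours were close together, whereas rat 9 was the highest for Mx1. Ifit2, an RNA-binding antiviral protein, differed by -1.06, Psmb9, an immunoproteasome subunit that trims peptides for MHC class I, by -1.02, and Ifitm3, a membrane protein that blocks virus entry, by -0.44 (-0.19 without rat 7). In the livers Isg15 was called lower at day 25 as well, with 6.76, 6.38 and 7.28, against 8.07, 7.32 and 8.13 at day 10 (difference -1.03, adjusted p = 0.04).

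**Figure D3:**
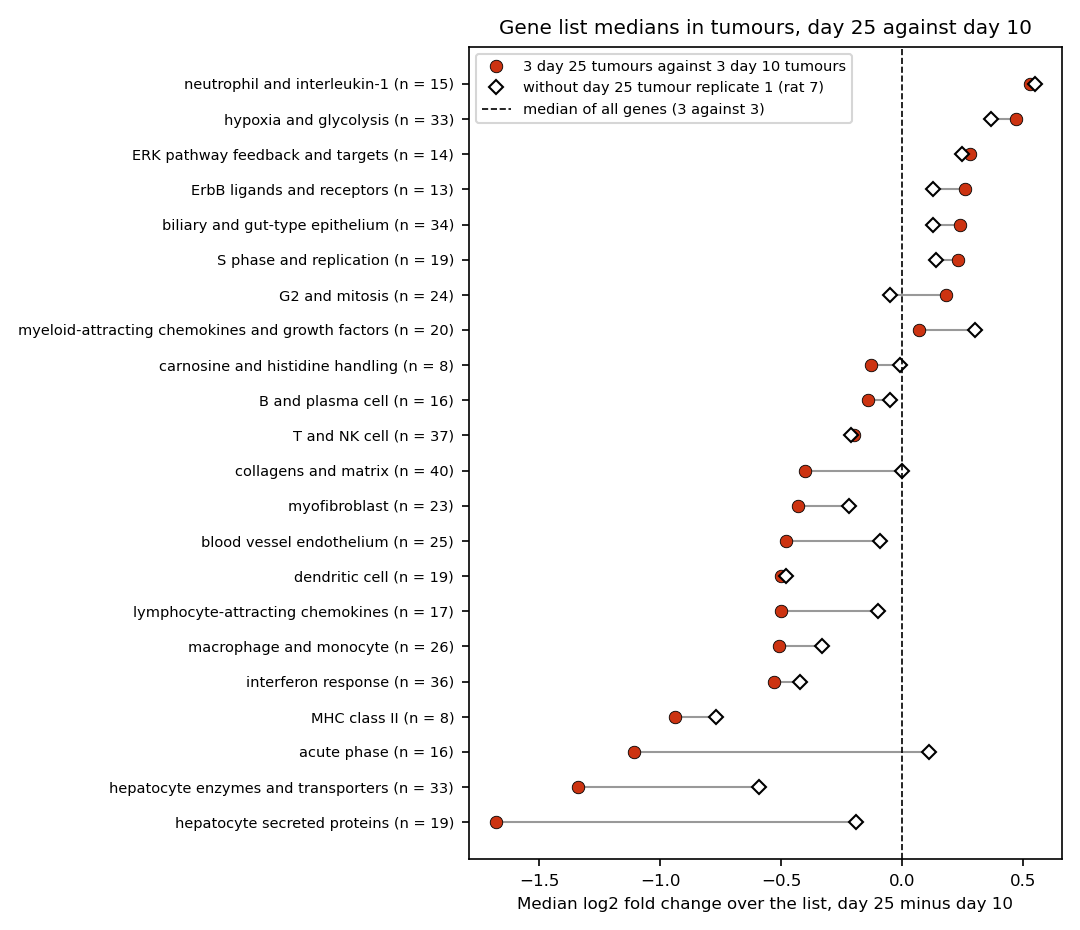
Median log2 difference between day 25 and day 10 tumours over the members of 22 gene lists (horizontal axis). Filled circles use all 3 day 25 tumours, open diamonds leave out the tumour of rat 7, and the dashed line is the median of all 14218 genes, 0.00. The MHC class II median is -0.94 with and -0.77 without rat 7, while that of the acute phase genes is -1.11 with and 0.11 without it.

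On the side of higher levels, the 10 genes with the largest separated difference at an unadjusted p under 0.05 were Kap, Cndp1, S100a8, Areg, Cxcl3, Tfcp2l1, S100a9, Krt12, Pglyrp1 and Edn1, and only Cndp1 was called. Kap, named for its regulation by androgen in the mouse kidney, had 11.87, 9.88 and 6.75 in day 25 tumours, against 5.47, 5.29 and 5.37 in day 10 tumours. The late tumours ran over 5 units, so a mean 17.4-fold difference missed the threshold (4.12, SE 1.24, adjusted p = 0.17). Edn1, endothelin 1, a vasoconstrictor peptide, had the lowest adjusted p of the 9 uncalled ones, with 9.22, 8.37 and 8.39 at day 25, against 7.19, 7.08 and 6.70 at day 10 (difference 1.67, SE 0.30, adjusted p = 0.059). Tfcp2l1, a transcription factor of the CP2 family, differed by 1.97 (SE 0.72), and 1.14 without rat 7. Krt12, a keratin known from the cornea, differed by 1.76 (SE 0.41), and 1.20 without rat 7.

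Neutrophil and interleukin-1 genes were higher without leaning on rat 7. Of 15 measured, 0 were called, and 8 were separated upward and 0 downward, against 12.2% and 15.0% of all genes. The median was 0.53, and 0.55 without rat 7. S100a8 and S100a9 pair to form calprotectin, the main cytosolic protein of neutrophils. S100a8 had 12.46, 12.38 and 12.07 in day 25 tumours, against 10.22, 10.22 and 9.77 in day 10 tumours (difference 2.23, SE 0.68, adjusted p = 0.17). S100a9 had 13.05, 13.25 and 12.75 at day 25, against 11.37, 11.21 and 10.95 at day 10 (difference 1.84, SE 0.48, adjusted p = 0.14). The late tumours were close to each other in both genes, at 4.70 and 3.58 times the early level.

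Both genes were also called higher at day 25 in the liver lobes, as 5.33% of all genes were. There S100a8 had 11.67, 11.55 and 10.70 at day 25, against 8.19, 7.10 and 5.31 at day 10 (difference 4.44, adjusted p = 0.0014). S100a9 differed by 3.50 (adjusted p = 0.00055). Pglyrp1, a peptidoglycan-binding protein of neutrophil granules, had 8.63, 8.75 and 7.80 in day 25 tumours, against 6.80, 6.92 and 6.41 in day 10 tumours (difference 1.69, SE 0.31, adjusted p = 0.072). Mmp8, the collagenase of neutrophils, had 5.83, 6.44 and 4.81 at day 25, against 4.43, 4.23 and 4.21 at day 10, and Mmp9, a gelatinase, had 7.39, 8.16 and 6.65, against 6.19, 6.23 and 6.40. Rat 9 was nearest the early level in both (differences 1.40 and 1.12, adjusted p = 0.14 and 0.17).

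The myeloid-attracting chemokines and growth factors split. Of 20 measured, 0 were called, and 5 were separated upward and 3 downward, against 12.2% and 15.0% of all genes. The median was 0.07, and 0.30 without rat 7 or -0.03 without rat 8. Differences of single members ran from -1.83 to 2.43. Among those separated upward were ligands of the neutrophil receptor Cxcr2. Cxcl3 had 10.77, 10.23 and 8.60 in day 25 tumours, against 7.80, 7.95 and 7.79 in day 10 tumours (difference 2.02, SE 0.53, adjusted p = 0.15). Of its other probe sets, 2 also gave 2.02 and 2 gave 0.03 and 0.18. Cxcl6 had 11.11, 11.39 and 10.57 at day 25, against 10.24, 10.16 and 9.92 at day 10 (difference 0.91, adjusted p = 0.2), and Cxcl1 differed by 0.85. Ccl11, an attractant of eosinophils, ran the other way, with 3.92, 5.00 and 5.01 at day 25, against 7.00, 6.48 and 5.36 at day 10 (difference -1.64, SE 0.74, adjusted p = 0.27). Ccl6, the brightest, differed by 0.14 (0.35 without rat 7).

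In the ErbB family, 3 ligands were separated upward and the receptor Egfr downward. Of 13 measured, 0 were called, and 3 were separated upward and 2 downward, close to the 12.2% and 15.0% of all genes for a list of this size (median 0.26, and 0.13 without rat 7). The 3 ligands bind the epidermal growth factor receptor. Areg, amphiregulin, had 9.59, 7.73 and 6.88 in day 25 tumours, against 6.02, 6.48 and 5.27 in day 10 tumours (difference 2.14, SE 0.63, adjusted p = 0.16; 1.38 without rat 7). Btc, betacellulin, had 8.60, 7.69 and 7.41 at day 25, against 6.75, 7.13 and 6.63 at day 10 (difference 1.06, SE 0.30, adjusted p = 0.16). Ereg, epiregulin, was dim, with 5.81, 5.13 and 4.59, against 4.52, 4.42 and 4.49 (difference 0.69, and 0.38 without rat 7). For each ligand the tumour of rat 7 was the highest and that of rat 9 the lowest of the late ones. Egfr, the receptor of these ligands, had 6.71, 8.02 and 8.17 at day 25, against 9.26, 8.25 and 8.65 at day 10 (difference -1.08, SE 0.43, adjusted p = 0.23; -0.62 without rat 7), and its other probe sets gave -0.98 and -0.15. In liver Egfr was brighter, between 9.52 and 10.76 at days 25 and 10.

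Feedback and target genes of ERK, downstream of these receptors, had a median of 0.28 over 14 measured, with 0 called, 3 separated upward and 1 downward, against 12.2% and 15.0% of all genes. Fosl1, an AP-1 subunit induced by ERK, had 9.09, 8.18 and 7.47 in day 25 tumours, against 6.87, 7.10 and 6.62 in day 10 tumours (difference 1.38, SE 0.36, adjusted p = 0.14). Spry2, a feedback inhibitor of Ras signalling, had 9.48, 8.53 and 8.09 at day 25, against 7.76, 7.85 and 7.12 at day 10 (difference 1.12, SE 0.29, adjusted p = 0.15; 0.73 without rat 7). Dusp6, the ERK phosphatase and the brightest of the list, was the third gene separated upward, by 0.19 (SE 0.37). Errfi1, a feedback inhibitor of the ErbB receptors themselves, was the 1 separated downward, at -0.57, and it too is brighter in liver, between 12.15 and 12.84 at days 25 and 10.

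Hypoxia and glycolysis genes had a median difference of 0.47 (0.37 without rat 7). Of 33 measured, 0 were called, 30 had a positive difference, and 10 were separated upward and 0 downward, against 12.2% and 15.0% of all genes. Slc2a3, a high-affinity glucose transporter, had 7.62, 7.99 and 6.42 in day 25 tumours, against 6.16, 6.00 and 5.61 in day 10 tumours (difference 1.42, SE 0.44, adjusted p = 0.17). Car9, a carbonic anhydrase induced by HIF-1 that exports acid, had 9.92, 8.95 and 8.11 at day 25, against 7.97, 7.66 and 7.62 at day 10 (difference 1.24, SE 0.37, adjusted p = 0.16; 0.78 without rat 7). Egln3, an oxygen-sensing hydroxylase, and Kdm3a, a histone demethylase, both induced in low oxygen, differed by 1.08 and 0.90 (0.72 and 0.55 without rat 7). Rat 9 was the lowest late tumour in each of these 4 genes. The mean level of the list was 9.68, 9.65 and 8.87 in day 25 tumours, against 8.96, 8.79 and 8.90 in day 10 tumours, so as a mean the list was apart in rats 7 and 8 and not in rat 9. Pgk1, a glycolytic enzyme and the brightest, differed by 0.30.

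**Figure D4:**
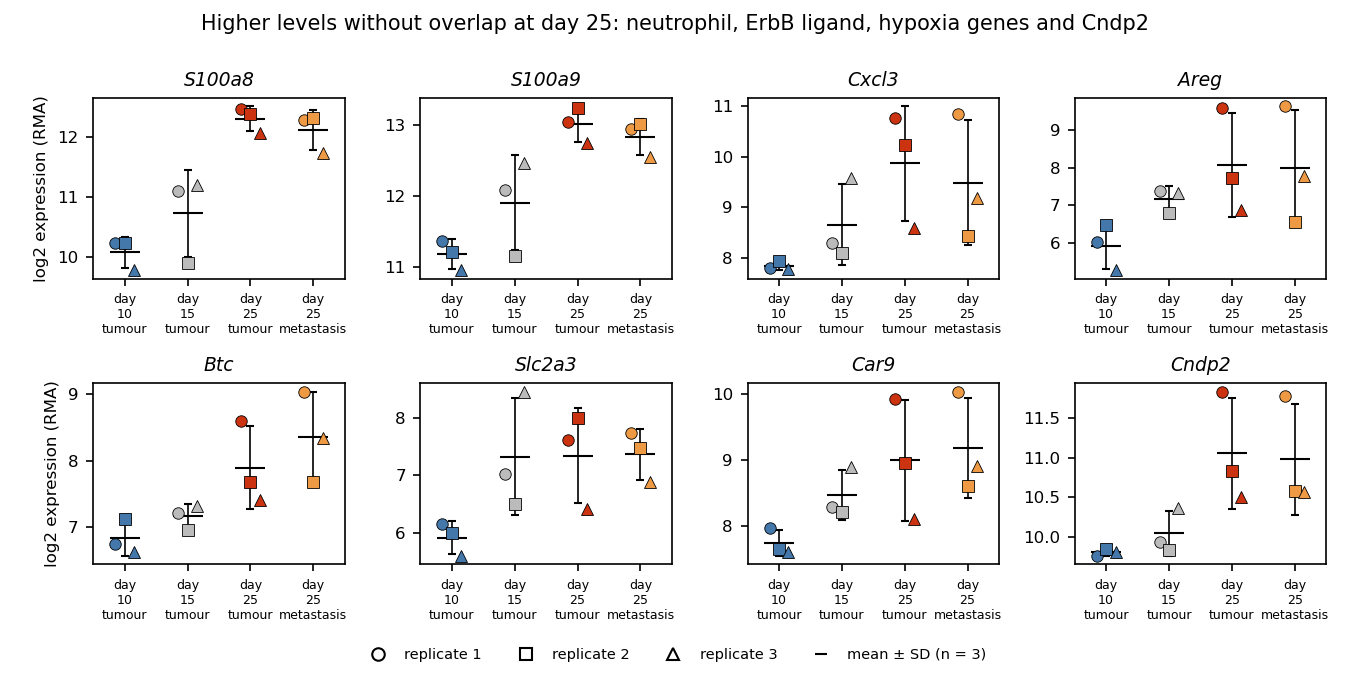
Log2 expression (vertical axis, its own scale in each panel) of 8 uncalled genes whose day 25 tumours all lay above the day 10 tumours: neutrophil genes S100a8, S100a9 and the chemokine Cxcl3, the ErbB ligands Areg and Btc, the hypoxia genes Slc2a3 and Car9, and Cndp2. Points are single arrays of tumours of days 10, 15 and 25 and of day 25 metastases, and bars are the mean ± SD of 3 rats. S100a8 is tight, at 12.07 to 12.46 at day 25, whereas Areg runs from 6.88 to 9.59 there.

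Cell division genes differed little. Over 19 measured S phase genes the median was 0.23 (0.14 without rat 7), with 0 called, 3 separated upward and 1 downward, against 12.2% and 15.0% of all genes. Uhrf1, which guides DNA methylation to new strands, had 10.00, 9.40 and 9.31 in day 25 tumours, against 8.89, 8.80 and 8.25 in day 10 tumours (difference 0.92, SE 0.33, adjusted p = 0.2). The replication helicase subunits Mcm6 and Mcm7 differed by 0.54 and 0.46 (0.32 and 0.27 without rat 7), and Ccne2, cyclin E2, by -0.38. Pcna, the brightest, had 11.84, 11.24 and 11.26 at day 25, against 11.20, 11.49 and 11.26 at day 10, with overlap. Over 24 G2 and mitosis genes the median was 0.18, and -0.05 without rat 7. Of these only Top2a, topoisomerase 2, was separated, with 9.97, 9.49 and 9.46 at day 25, against 9.45, 9.39 and 9.05 at day 10 (difference 0.34, SE 0.40; 0.18 without rat 7).

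Bile duct and gut-type epithelial genes had a median of 0.24 over 34 measured (0.13 without rat 7), with 0 called, 9 separated upward and 1 downward, against 12.2% and 15.0% of all genes. Krt20, a keratin of gut-type epithelium, had 12.78, 12.09 and 11.82 in day 25 tumours, against 11.08, 11.47 and 10.93 in day 10 tumours (difference 1.07, SE 0.31, adjusted p = 0.16). Prom1, a membrane protein of ductal and progenitor cells, had 10.96, 10.57 and 10.43 at day 25, against 9.84, 9.95 and 9.53 at day 10 (difference 0.88, adjusted p = 0.19). Cdh1, E-cadherin, differed by 0.72 (0.02 by its other probe set) and Cldn3, a tight junction protein, by 0.68 (0.30 without rat 7). In all 4 the tumour of rat 7 was the highest. Tspan8, the brightest of the list, differed by 0.25 to 0.50 with any 1 array left out.

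The medians of the stromal and vessel lists depended on rat 7. Over 40 collagens and matrix genes the median was -0.40, and 0.00 without that tumour. Of these 0 were called, and 3 were separated downward, against 15.0% of all genes, namely Ogn (-1.67), Col5a3 (-1.01, and -0.43 without rat 7) and Lum (-0.56, and -0.21 without rat 7). Col3a1, the brightest, had 12.92, 13.89 and 14.01 in day 25 tumours, against 13.87, 14.01 and 13.83 in day 10 tumours. Only rat 7 was apart there.

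Myofibroblast genes had a median of -0.43 over 23 measured (-0.22 without rat 7), with 5 separated downward, against 15.0% of all genes. Among these Thy1, a surface glycoprotein of fibroblasts, had 6.58, 8.05 and 8.30 at day 25, against 8.78, 9.15 and 8.48 at day 10 (difference -1.16, SE 0.46, adjusted p = 0.23; -0.63 without rat 7). Vim, vimentin, the intermediate filament of mesenchymal cells, differed by -0.43. Zeb2 differed by -0.52 and the pericyte gene Rgs5 by -1.23, and by -0.24 and -0.45 without rat 7. Acta2, smooth muscle actin, had 10.26, 10.72 and 11.02 at day 25, against 10.95, 11.04 and 10.88 at day 10, with overlap.

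Over 25 endothelial genes the median was -0.48, but -0.09 without rat 7. A negative difference was found for 19 and a positive one for 6. Separated downward were 7 and upward 0, against 15.0% and 12.2% of all genes. Kdr, the main receptor for vascular endothelial growth factor, had 6.24, 8.61 and 8.63 in day 25 tumours, against 8.98, 8.78 and 8.70 in day 10 tumours, which is a gap of over 2 units in rat 7 and of less than 0.1 to the nearest early tumour in rats 8 and 9. Its other probe set differed by 0.32. Cldn5, a tight junction protein of endothelium, was lower in all 3, with 5.35, 6.59 and 6.30, against 6.72, 7.49 and 7.10 (difference -1.03, SE 0.31, adjusted p = 0.17; -0.66 without rat 7). Icam2 (-0.96, but 0.10 by its other probe set) and Eng, endoglin (-0.65), were also separated, with -0.44 and -0.28 without rat 7. In Eng rat 7 was more than 1 unit under the other late tumours. Sox17, the brightest of the list, was higher by 0.56 (SE 0.45), and its other probe sets gave 0.08 and 0.95. With any 1 array left out its difference ranged from 0.09 to 0.88.

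In 1393 genes without provisional names, the day 25 and day 10 liver means both lay at least 1 unit under the day 10 tumour mean. Of these, 194 were separated downward and 123 upward at an unadjusted p under 0.05. Over all genes without provisional names the counts were 1110 and 870. Those come from a larger total, so the counts cannot be compared as shares. The selection was chosen after the values had been seen and takes genes that are high in day 10 tumours, which favours differences downward, so the counts describe the selection only. The 10 with the largest differences were Aspn (-2.25), Ifgga2l1 (-1.97), Pkib (-1.83), Clec4a (-1.71), Gabrp (-1.70), Ogn (-1.67), Rgs18 (-1.67), Fcnb (-1.66), Epsti1 (-1.66) and Ch25h (-1.65). Of these only Ch25h was called, and without rat 7 Gabrp differed by -1.07 and Fcnb by -0.88. Aspn, asporin, a small matrix protein that binds collagen, had 5.63, 5.59 and 6.79 in day 25 tumours, against 7.46, 8.84 and 8.46 in day 10 tumours (SE 0.51, adjusted p = 0.14). Clec4a, an inhibitory lectin receptor of dendritic cells and macrophages, had 6.05, 6.31 and 7.31 at day 25, against 7.96, 8.47 and 8.36 at day 10. Pkib, an inhibitor of cAMP-dependent protein kinase, had 4.40, 4.92 and 5.21 at day 25, against 6.36, 6.90 and 6.74 at day 10 (adjusted p = 0.11). In these 3 genes the late tumours all lay below the early ones, with rat 9 the highest of them.

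The 10 largest separated differences downward at an unadjusted p under 0.05 were of genes that liver expresses more strongly than tumour: Obp3, Cyp2c11, Car3, Sult1e1, Scd, Mup5, Cyp3a2, Serpina3l, Ces1d and Thrsp. For all 10 the day 10 liver mean was above the day 10 tumour mean. Cyp2c11, the male-specific steroid hydroxylase of rat liver, had 4.66, 5.65 and 8.45 in day 25 tumours, against 11.95, 11.22 and 12.33 in day 10 tumours (difference -5.58, SE 1.32, adjusted p = 0.14). Obp3, of the alpha-2u globulin family that rat liver secretes into urine, had 4.60, 3.96 and 8.00 at day 25, against 11.56, 10.67 and 12.20 at day 10 (difference -5.96, SE 1.48, adjusted p = 0.14). In both, rat 9 lay far above rats 7 and 8, and all late tumours lay below the early ones. Mup5, of the same family, differed by -4.08, but its other probe sets gave -0.11 and -0.62. These probe sets may read several near-identical family members.

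In the liver lobes these genes also had lower means at day 25. Cyp2c11 had 5.93, 6.76 and 11.13 in day 25 livers, against 13.35, 13.57 and 13.53 in day 10 livers (difference -5.54, adjusted p = 0.016), again with rat 9 the highest. Obp3 had 6.07, 5.23 and 10.89 at day 25, against 13.13, 13.51 and 13.44 at day 10 (difference -5.96, adjusted p = 0.019). In liver 6 of the 10 genes were called as lower at day 25, where 3.77% of all genes were. Scd, which desaturates fatty acids, differed by -4.09 in tumours and -3.34 in livers. Ces1d, a carboxylesterase, differed by -3.42 in tumours (SE 0.84, adjusted p = 0.14) and -5.84 in livers (adjusted p = 0.00072). Without rat 7 the tumour differences were -4.78 for Cyp2c11, -5.50 for Obp3, -3.02 for Scd and -3.33 for Ces1d.

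The medians of the other hepatocyte lists moved with that 1 tumour, though some of their genes were lower in all late tumours. Over 33 enzymes and transporters the median was -1.34, and -0.59 without rat 7, with 0 called and 10 separated downward, against 15.0% of all genes. Slc10a1, the bile salt uptake carrier, had 4.39, 8.80 and 9.28 in day 25 tumours, against 10.75, 9.37 and 10.43 in day 10 tumours (difference -2.69, and -1.14 without rat 7). Otc, a urea cycle enzyme, had 4.54, 7.13 and 7.48 at day 25, against 9.14, 8.30 and 9.41 at day 10 (difference -2.57, and -1.65 without rat 7). Hao1 differed by -3.50 to -1.35 with any 1 array left out. Ass1, the brightest of the list, differed by only -0.54 (SE 0.34), and by -0.33 without rat 7. Over 19 secreted proteins the median was -1.68 with rat 7 and -0.19 without, with 6 separated downward. Ttr, transthyretin, which carries thyroid hormone, had 8.25, 11.72 and 12.32 at day 25, against 13.49, 12.85 and 13.43 at day 10 (difference -2.49, and -1.24 without rat 7). Afm, afamin, differed by -1.96, and by -1.03 without rat 7. Apoc3 and Ahsg differed by -1.94 and -1.85, and by -0.72 and -0.56 without rat 7. Alb, albumin, had 11.68, 14.29 and 14.38 at day 25, against 14.56, 14.45 and 14.53 at day 10 (difference -1.06, and -0.18 without rat 7). Over 16 acute phase proteins, which hepatocytes secrete in inflammation, the median was -1.11 with and 0.11 without, and none was separated. Hp, haptoglobin, had 10.74, 14.12 and 14.19 at day 25, against 14.16, 13.71 and 14.17 at day 10, so rats 8 and 9 were at the early level. How much liver each piece held was not measured, and its part in these differences was not tested.

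**Figure D5:**
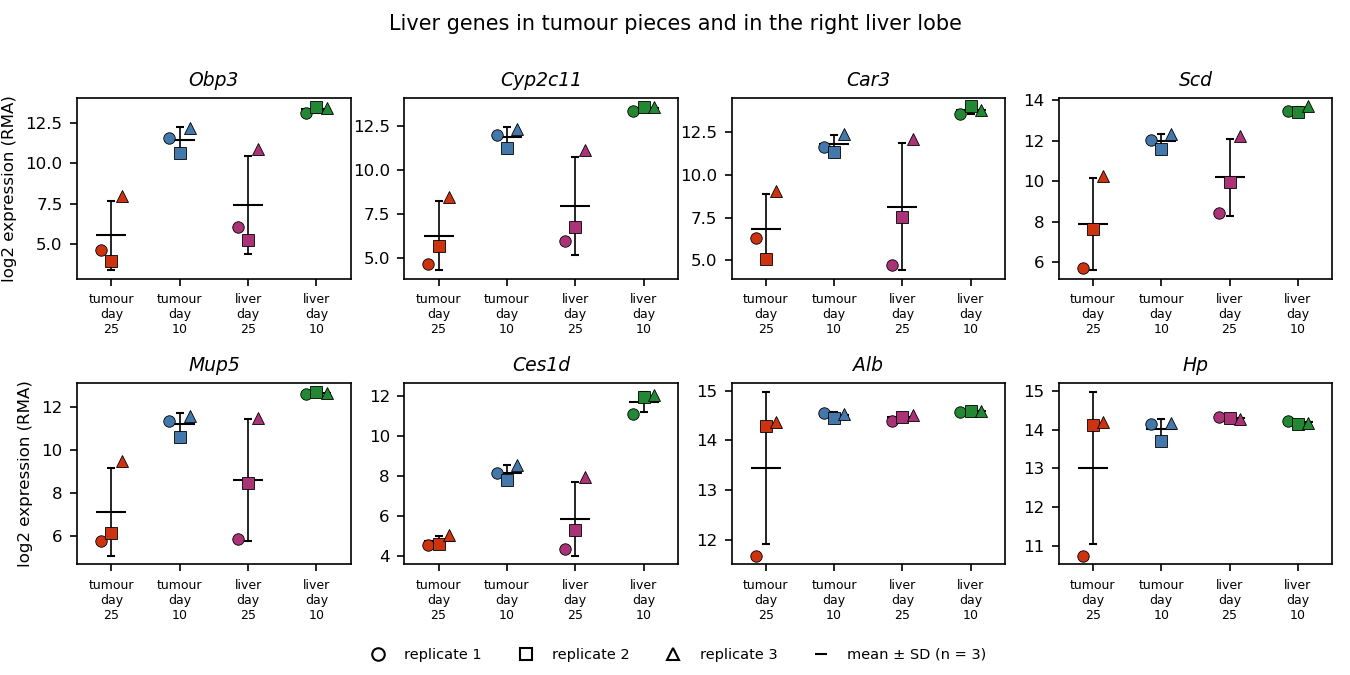
Log2 expression (vertical axis, its own scale in each panel) of 8 hepatocyte genes in day 25 and day 10 tumours and in day 25 and day 10 livers. Points are single arrays and bars the mean ± SD of 3 rats. Obp3, Cyp2c11, Car3, Scd, Mup5 and Ces1d lie lower at day 25 in both tissues, as Cyp2c11 does with 4.66 to 8.45 in tumours and 5.93 to 11.13 in livers, whereas Alb and Hp are more than 2 units lower only in the tumour of rat 7, at 11.68 and 10.74.

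The tumours of day 15 share arrays with both comparisons, so their values are given side by side only. No gene was called between day 15 and day 10, or between day 25 and day 15, with 350 (2.46%) and 1202 (8.45%) at an unadjusted p under 0.05. Median differences between day 15 and day 10 were -0.12 for MHC class II, 0.11 for interferon response, -0.08 for T and NK cells and 0.09 for neutrophils. Those between day 25 and day 15 were -0.76, -0.57, -0.21 and 0.42 in the same order. For hypoxia the difference was 0.36 up to day 15 and 0.08 after it, and for dendritic cells -0.30 and -0.32. For hepatocyte enzymes it was -0.56 and -0.77, and for hepatocyte secreted proteins -0.58 and -1.10. Ciita stood at 8.12, 7.68 and 7.57 at day 15 and S100a8 at 11.09, 9.89 and 11.19. For Ciita these lie above all day 25 tumours, and for S100a8 below all of them.

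The 16 lists not described held 1 called member, Ch25h, among genes of oxysterols and cholesterol. Their medians ran from -0.30 (immune checkpoint genes, and -0.03 without rat 7) to 0.60 (pancreatic acinar genes, and 1.07 without rat 7). The differences between days were also set against those in the liver of the same rats: 208 genes (1.46%) had a tumour difference that was not the liver difference by limma's interaction test on group means, which ignores that tumour and liver share a rat, and 153 by a fit on tumour minus liver within each rat, among them the called genes Ch25h, Clec9a and P2ry10 in both and Ccl17 in the first.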

How the data were processed

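Each probe set has a deposited log2 value, and RMA is the method named per the submitters' processing notes, without a version. Total RNA was labelled with biotin and hybridised to Affymetrix arrays, per the labels' protocols. RMA corrects background, quantile normalizes arrays and summarises probes, so a difference shared by most transcripts would be weakened. Arrays have no read depth: 3 arrays a group limit the precision. The median SD of a gene was 0.161 in day 25 and 0.11 in day 10 tumours.

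Of 31099 probe sets, 20832 carried 1 gene symbol. 436 carried several and 9831 are unnamed here, and neither kind was used. Symbols were updated through a RefSeq table (GRCr8), which held 20764. Each of 14218 genes was represented by its probe set with the highest mean over 21 arrays. Differences were fitted in R 4.3.3 with limma 3.58.1 (lmFit, eBayes) on 7 group means, adjusted by Benjamini-Hochberg over all genes, and called at an adjusted p under 0.05. SEs are those of the fit. All adjusted p-values in the text are from limma. The script was tested on simulated data. "Separated" means that the 3 arrays of each day did not overlap; its counts without rat 7 were chosen after seeing the data.

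Named were all called genes, the 10 largest separated differences each way with an unadjusted p under 0.05 and no provisional name, and, per list described, up to 4 separated members with the largest difference and the brightest member. Erbb2 and the carnosine list were always named, and every class II gene because that list is short. The members and the 38 lists (733 of 834 members measured) were chosen with earlier results of these data known, so lists are described and not tested. The labels give no scan date or batch. The descriptions of the day 25 livers name another day than their titles and sources; the titles were followed.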

Additional observations from a re-analysis of the deposited data

Results flagged for a closer look

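For 9 named genes the difference between day 25 and day 10 was not the same in tumour as in the liver lobe of the same rats, by limma's test of the interaction (tumour difference minus liver difference, adjusted over all genes; 208 of 14218 genes, 1.46%, passed it). The test was fitted on group means with no rat term, although tumour and liver share a rat. Of the called genes, Ch25h gave -1.99 (SE 0.32, adjusted p = 0.012), Clec9a -1.46 (SE 0.30, adjusted p = 0.031), Ccl17 -1.07 (SE 0.25, adjusted p = 0.046) and P2ry10 -0.80 (SE 0.16, adjusted p = 0.028). These 4 were lower at day 25 in tumour, while their liver differences lay between -0.18 and 0.33. The class II chaperone genes RT1-DMa and RT1-DMb gave -2.19 (SE 0.52, adjusted p = 0.047) and -1.79 (SE 0.41, adjusted p = 0.044). RT1-DMa had 9.41, 8.36 and 7.66 in day 25 livers, against 7.19, 7.38 and 7.22 in day 10 livers, the opposite order to the tumours. The liver of rat 7, the highest there, also stood apart in the bile duct marker mean, with 7.38, 6.04 and 5.72 in day 25 livers. Its part in the liver differences was not tested. Ccl21 gave -4.77 (SE 1.07, adjusted p = 0.041) and Rgs5 -4.13 (SE 0.91, adjusted p = 0.039). Both were called higher in day 25 livers, by 2.90 each, and both had rat 7 as the lowest tumour. Vim gave -1.66 (SE 0.27, adjusted p = 0.012), with liver levels of 10.47, 10.47 and 9.89 at day 25, against 9.09, 9.09 and 8.95 at day 10. These genes were looked at because they were named for the tumour comparison, whose arrays the interaction shares. With the rat as a random block all 9 stayed under 0.05, while a fit on tumour minus liver within each rat left 5 of the 9 there. In that fit Ccl17 had an adjusted p of 0.053, RT1-DMb of 0.065, RT1-DMa of 0.093 and Ccl21 of 0.063, with the same differences.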

How the results depend on the processing

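The count of 8 called genes (2 higher, 6 lower) depended on the fit. It was 6 (1 higher, 5 lower) after quantile normalization, 7 (1 higher) with a robust prior and 10 (4 higher) with the mean of all probe sets. With a filter on dim genes it was 4 of 9843 (1 higher, 3 lower). That filter left out the called genes Clec9a, Gcsam and P2ry10 as dim. Array weights gave 4535 (2056 higher, 2479 lower), with weights of 0.261, 6.19 and 0.681 for the tumours of rats 7, 8 and 9. The 9 tumour arrays alone, the 6 compared arrays alone and a linear trend over the days called 0 (0 higher, 0 lower), with 2511, 2534 and 2947 genes at an unadjusted p under 0.05. The replicate number as a fixed block, fitted on the 9 tumour arrays only, also called 0 (0 higher, 0 lower; 1740 unadjusted). Those 9 arrays called 0 without the block too, so this 0 cannot be credited to it. Replicate numbers do not pair these rats, which are different animals. Deviations of same-numbered tumours from their group means correlated at -0.29, -0.45 and 0.24, and those of differently numbered ones at -0.30 to 0.43. Deviations from a mean of 3 arrays are tied to each other, so these correlations cannot decide on pairing. With the rat as a random block, which joins tissues within a day, 9 were called (3 higher, 6 lower). The interaction of day and tissue called 208 genes without a rat term, 402 with the rat as a random block and 153 on tumour minus liver within each rat, both chosen after seeing the data. Leaving out 1 array gave 0 to 159 genes (0 to 72 higher, 0 to 87 lower): 159 without rat 9, 6 (0 higher) without rat 1, and 0 without any of rats 7, 8, 2 or 3. Direction turned for 4 uncalled genes: Col3a1 (0.05) and Hp (0.14) without rat 7, Pcna with array weights (-0.00) and without rat 7 (-0.06), and Slc15a1 with median centring (0.04), array weights (0.08) and without rat 7 (0.08) or rat 1 (0.01). With any 1 array left out these genes ranged from -0.50 to 0.05 (Col3a1), -1.58 to 0.14 (Hp), -0.06 to 0.23 (Pcna) and -0.09 to 0.08 (Slc15a1). The causes were not tested. Of the remaining values of named genes over these settings, 2198 kept direction and side of the threshold, 123 gained a call and 71 lost one. The gains came mostly with array weights, the setting that called 4535 genes. Most named genes were uncalled in the main fit, so keeping the side mostly meant staying uncalled. Only the 8 called genes could lose a call.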
